A study of Mus musculus with 3 samples.

Results

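MAP kinase cascades relay signals from the cell surface in tiers: a MAP kinase kinase kinase such as a RAF protein phosphorylates a MAP kinase kinase (MEK or MKK), which phosphorylates a MAP kinase. The ERK branch answers growth factors and synaptic activity and is needed for lasting synaptic change, whereas the JNK and p38 branches answer stress and cytokines and also take part in neuronal development and plasticity. In the hippocampus ERK signalling is known for its part in memory, and JNK3 is the JNK form characteristic of neurons. The genes described here are 8 of the 32531 genes with a row in the count files. They were chosen by name, with earlier results of these data known. They are the RAF gene Braf, the MAP kinase kinase genes Map2k1 (MEK1) and Map2k4 (MKK4), the ERK1 gene Mapk3, the JNK genes Mapk8 (JNK1), Mapk9 (JNK2) and Mapk10 (JNK3), and the p38-alpha gene Mapk14. All 8 had a row and all 8 passed the filter on low counts.

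The study sequenced ribosome-bound RNA of the dentate gyrus from untreated adult mice of the line Penk-TRAP NIDA186 on the C57BL/6J strain. These mice make a fusion of EGFP with the ribosomal protein Rpl10a under regulatory DNA of the proenkephalin gene Penk, and ribosomes with the tag were pulled down with antibodies against EGFP. All 3 libraries were immunopurified samples of 1 group, replicates 1 to 3, and nothing in the labels says whether they came from separate animals, so their spread may be technical in part. No whole-tissue or unbound library was used here, so genes were compared within a library, and neither enrichment nor the cells that carried the tag can be read from these levels. Fewer cells of a type and less RNA per cell cannot be told apart in such bulk samples.

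Counts on genes were 5348761, 19195559 and 11059982 in replicates 1 to 3. Replicate 1 stood apart: a list of 6 nuclear long noncoding RNAs reached 96328 CPM there (CPM, that is counts divided by a TMM-scaled library size), against 18827 CPM in replicate 2 and 37677 CPM in replicate 3. Most of this sum was Malat1, at 84636, 16582 and 32870 CPM in replicates 1 to 3. Of the 6 genes 4 had this order, whereas Neat1 was lowest in replicate 1 (18.9, 48.4 and 76.1 CPM) and Miat highest in replicate 3 (105, 40.1 and 174 CPM). Listed reads on genes were 16.3, 38.2 and 21.1% in replicates 1 to 3, and 8795, 14252 and 12019 genes had at least 10 counts. The summed levels of 7 pan-neuronal markers were 7589, 12905 and 8198 CPM in replicates 1 to 3, those of 9 granule cell markers 1834, 2250 and 1203 CPM and those of 7 astrocyte markers 3075, 1367 and 3233 CPM. The granule cell marker Prox1 was present in all 3 libraries at 658, 475 and 261 CPM, whereas C1ql3, another granule cell marker, had 0 counts in replicate 1. Of 7 microglial markers, 6 were at 0 in at least 1 library, and their sum was between 3.30 and 21.5 CPM. The part of these differences in the values below was not tested unless a value without replicate 1 is given.

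MAP kinases are switched on by phosphorylation of a threonine and a tyrosine that flank 1 residue in the activation loop, and that middle residue differs between the ERK, JNK and p38 branches. The coding DNA around this site is shown for the 5 MAP kinase genes because it is where the branches part. Its likeness among the JNK genes could also bear on how reads were assigned, which was not tested. The sequences are from the GENCODE vM21 transcript models on GRCm38, 5′ to 3′ on the coding strand, 60 bases each, with the 3 codons of the threonine, middle residue and tyrosine in capitals.
Mapk3: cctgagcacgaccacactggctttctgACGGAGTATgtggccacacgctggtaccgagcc
Mapk8: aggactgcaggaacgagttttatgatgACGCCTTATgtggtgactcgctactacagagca
Mapk9: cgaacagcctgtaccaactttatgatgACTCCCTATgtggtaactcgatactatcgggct
Mapk10: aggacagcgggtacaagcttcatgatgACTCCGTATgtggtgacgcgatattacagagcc
Mapk14: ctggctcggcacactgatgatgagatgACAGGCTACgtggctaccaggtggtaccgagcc

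The Mapk3 stretch lies at chr7:126763431-126763490 (plus strand, exon 4 of the transcript) and the Mapk14 stretch at chr17:28728372-28728431 (plus strand, exon 7). The Mapk8 stretch lies at chr14:33392979-33393038 (minus strand, exon 6), the Mapk9 stretch at chr11:49872803-49872862 (plus strand, exon 6) and the Mapk10 stretch at chr5:102989657-102989716 (minus strand, exon 7). The middle codon was a proline codon in the 3 JNK genes, spelled CCT in Mapk8, CCC in Mapk9 and CCG in Mapk10, a glutamate codon (GAG) in Mapk3 and a glycine codon (GGC) in Mapk14. Over this stretch Mapk8 and Mapk10 shared 48 of 60 bases, Mapk9 and Mapk10 45, and Mapk8 and Mapk9 43, whereas Mapk3 shared 27 to 29 bases with the JNK genes. Over the longest coding sequences the JNK genes were 74.7 to 75.5% identical in aligned bases, and the longest run of identical bases between any pair of them was 23. Mapk3 and Mapk14, 59.5% identical, shared a longer run of 26 bases. The read length was not given in the sources used here. Reads that fit 2 genes equally well are left out of gene counts in the class aligned to several places, which held 32.2, 24.8 and 37.5% of listed reads in replicates 1 to 3. These shares are over all listed reads of a library, and how many came from JNK genes is not known.

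Per kb of exon, 6 of the 8 cascade genes lay above the median tested gene of the library, 0 lay below it, and Mapk10 was the highest by mean level. A gene was called when its log2 level per kb differed from the median gene by more than 1 (limma TREAT, adjusted p under 0.05). Over all 7924 tested genes, 9.76% were called above and 3.74% below. The members were chosen with earlier results of these data known, so their share describes this list only. The members called, from the highest, were Mapk10, Braf, Map2k4, Map2k1, Mapk9 and Mapk3, or 75% of the list, and Mapk14 and Mapk8 did not pass the test. At an unadjusted p under 0.05, 6 members were above and 0 below. The share of all tested genes at that unadjusted threshold was not computed, so these counts cannot be set against it. With DESeq2 size factors 6 were above, but such a change barely moves levels set against the library's own median gene. The median level of the 8 members was 2.55 on the log2 scale, against -0.14 for all tested genes. Without replicate 1 the count above was also 6 of 8, where 14.6% of all tested genes were above. It was 3 without replicate 2 (7.21% of all tested genes) and 4 without replicate 3 (7.27%). Braf, Map2k4 and Mapk10 kept their calls in each case. The count was also 4 without correction for length (14.1%), with the longest coding length (11.9%) and with libraries thinned to the smallest (8.86%).

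**Figure D1:**
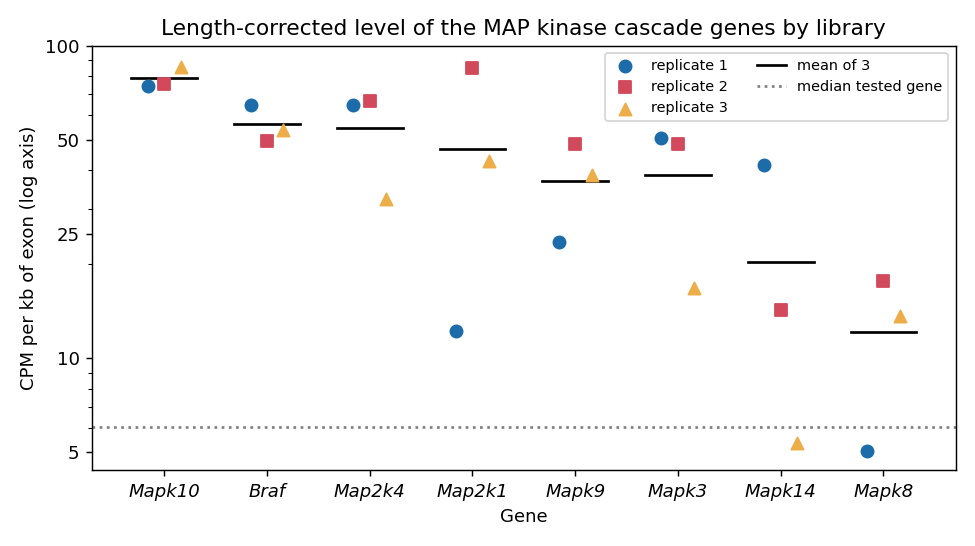
Level of each of the 8 cascade genes in CPM per kb of exon (log axis) in replicates 1 to 3 (points), with the mean of the 3 libraries (black bar) and the median tested gene (dotted line), ordered by mean log2 level. The 3 library values of Mapk10 lie close to one another, as do those of Braf. Map2k1 and Mapk14 spread widely, with replicate 1 lowest for Map2k1 and highest for Mapk14.

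The RAF tier was represented by Braf, which encodes the RAF kinase that phosphorylates MEK and lies on chromosome 6 (39603237 to 39725463, minus strand). Braf had 3810, 15772 and 8691 counts in replicates 1 to 3, or 64.8, 49.7 and 53.6 CPM per kb over 13.86 kb of exon, a mean of 56.0 ± 7.84 (SD, n = 3). Replicate 1 was highest, and all 3 libraries lay well above the median gene. Its level was 3.20 on the log2 scale (SE 0.43, adjusted p = 0.0014, limma), above the median gene in 3 of 3 libraries and higher than 95.7% of tested genes. In the annotation 146 exonic bases of Braf, 1.05% of its exon length, overlap the oppositely oriented gene Ndufb2, and the strand setting of the counting is not known.

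Of the MAP kinase kinase genes, Map2k4 was called above the median gene whichever library was left out, whereas Map2k1 was not. Map2k4, which encodes the kinase that phosphorylates JNK and can also phosphorylate p38 (chromosome 11, 65688243 to 65788297, minus strand), had 1284, 7141 and 1768 counts, or 64.9, 66.8 and 32.4 CPM per kb, a mean of 54.7 ± 19.3 (SD, n = 3). Replicate 3 was lower and the other two were alike. The level was 3.11 (SE 0.45, adjusted p = 0.0025, limma). Map2k1, which encodes the kinase directly upstream of ERK (chromosome 9, 64185770 to 64253631, minus strand), had 176, 6601 and 1692 counts, or 12.2, 85.0 and 42.7 CPM per kb, a mean of 46.6 ± 36.5 (SD, n = 3). Replicate 1 was far below the others, at 41.5 CPM with a counting interval of 35.6 to 48.1 CPM, against 145 CPM in replicate 3. Its level was 2.55 (SE 0.52, adjusted p = 0.0356, limma); the libraries stood at 1.14, 3.73 and 2.79, an SD of 1.31, and the SE is smaller than this spread alone would give because limma shares the spread across genes. Leaving out replicate 2 ended that call (1.88, adjusted p = 0.458), as did leaving out replicate 3 (2.57, adjusted p = 0.111). With replicate 1 left out the level was 3.75 (adjusted p = 2.3e-09).

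Mapk3 encodes ERK1, the MAP kinase downstream of MEK, and lies on chromosome 7 (126759601 to 126765819, plus strand). It had 485, 2518 and 444 counts, or 50.7, 48.7 and 16.8 CPM per kb over 2.26 kb of exon, a mean of 38.7 ± 19.0 (SD, n = 3). Replicates 1 and 2 were alike and replicate 3 was lower. The level was 2.52 (SE 0.48, adjusted p = 0.0285, limma), above the median gene in 3 of 3 libraries, and it missed the threshold with replicate 2 left out (2.23, adjusted p = 0.245). Without correction for length the call of this short gene ended too (1.29, adjusted p = 0.575).

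The 3 JNK genes fell in 1 order in every library, with Mapk10 highest, Mapk9 next and Mapk8 lowest. Mapk10, which encodes JNK3 (chromosome 5, 102907948 to 103211334, minus strand), had 3524, 19284 and 11158 counts, or 74.6, 75.6 and 85.8 CPM per kb, a mean of 78.7 ± 6.16 (SD, n = 3). The values of its 3 libraries were close together, and its level was 3.70 (SE 0.43, adjusted p = 2.2e-04, limma), higher than 97.3% of tested genes. Mapk9, which encodes JNK2 (chromosome 11, 49846751 to 49886421, plus strand), had 677, 7521 and 3070 counts, or 23.5, 48.4 and 38.7 CPM per kb, a mean of 36.9 ± 12.5 (SD, n = 3). Replicate 1 was lowest. The level of Mapk9 was 2.55 (SE 0.45, adjusted p = 0.0185, limma), and it missed the threshold with replicate 2 (2.27, adjusted p = 0.218) or replicate 3 (2.63, adjusted p = 0.0924) left out. Mapk8, which encodes JNK1 (chromosome 14, 33377898 to 33447158, minus strand), had 245, 4625 and 1831 counts, or 5.05, 17.6 and 13.7 CPM per kb, a mean of 12.1 ± 6.44 (SD, n = 3). In replicate 1 it lay just below the median gene and in the other two above it. With a level of 0.82 (SE 0.57, adjusted p = 0.928, limma), Mapk8 did not pass the test.

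Within each library Mapk10 exceeded both other JNK genes. Mapk9 minus Mapk10 was -1.66, -0.64 and -1.15 in log2 CPM per kb over replicates 1 to 3, which averages -1.15 (SE 0.45, 95% interval -2.11 to -0.19, adjusted p = 0.0234, limma). Mapk8 minus Mapk10 was -3.88, -2.10 and -2.65, a mean of -2.88 (SE 0.57, adjusted p = 2.0e-04, limma). Mapk8 minus Mapk9 was -2.22, -1.46 and -1.50, a mean of -1.72 (SE 0.63, adjusted p = 0.0190, limma). As background, 92.6% of all tested genes were called lower than Mapk10 and 73.7% lower than Mapk9, so a lower level than these genes is the common case. The difference of Mapk8 from Mapk10 kept its call under every alternative run. That of Mapk9 from Mapk10 lost it with replicate 2 (-1.41, adjusted p = 0.0628) or replicate 3 (-1.15, adjusted p = 0.104) left out. That of Mapk8 from Mapk9 lost it likewise (-1.86, adjusted p = 0.108, and -1.84, adjusted p = 0.143) and also depended on the length used, at -1.27 with the longest transcript (adjusted p = 0.0624).

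Mapk10 made up 72.3, 53.4 and 62.1% of the summed JNK level per kb in replicates 1 to 3, on average 62.6 ± 9.48% (SD, n = 3). Mapk9 made up 22.8, 34.2 and 28.0%, and Mapk8 4.89, 12.5 and 9.91%. The Mapk10 share was therefore the majority in every library and was highest in replicate 1. In raw counts, which depend on gene length, Mapk10 had 3524 of 4446 JNK counts in replicate 1, or 79.3% (95% exact interval 78.0 to 80.4), 61.4% in replicate 2 (60.8 to 61.9) and 69.5% in replicate 3 (68.8 to 70.2). These intervals do not overlap, so the libraries differed in this share beyond counting error.

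**Figure D2:**
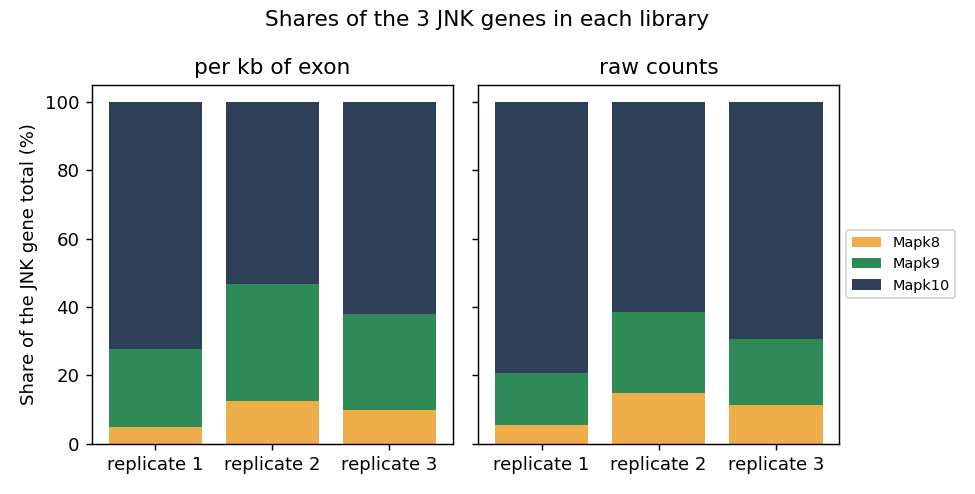
Share of Mapk8, Mapk9 and Mapk10 in the sum of the 3 JNK genes in each library (%), per kb of exon on the left and in raw counts on the right. Mapk10 holds 53.4 to 72.3% of the sum per kb, and Mapk8 has the smallest share in each library.

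Mapk14 encodes p38-alpha, the main p38 kinase of most tissues (chromosome 17, 28691329 to 28748406, plus strand), and differed widely between libraries. It had 770, 1433 and 273 counts, or 41.5, 14.3 and 5.34 CPM per kb, a mean of 20.4 ± 18.8 (SD, n = 3). Replicate 1 was highest and replicate 3 lay slightly below the median gene, with levels of 2.89, 1.17 and -0.20. The mean level was 1.28 (SE 0.60, adjusted p = 0.673, limma), which did not pass the test. Mapk3 minus Mapk14 was 0.29, 1.77 and 1.65 over replicates 1 to 3, averaging 1.24 (SE 1.03, 95% interval -0.79 to 3.26, adjusted p = 0.407, limma), above 0 in 3 of 3 libraries, and 1.82% of all tested genes were called higher than Mapk14. This difference did not pass the test, and its interval includes differences of either sign. By mean level Mapk14 was higher than 76.8% of tested genes, and the share called higher also depends on its spread between libraries.

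Neither pair tested within the ERK branch passed the test. Braf minus Map2k1 was 2.40, -0.78 and 0.33 over replicates 1 to 3, averaging 0.65 (SE 1.16, 95% interval -1.62 to 2.92, adjusted p = 0.636, limma). Map2k1 minus Mapk3 was -2.05, 0.80 and 1.34, a mean of 0.03 (SE 0.76, 95% interval -1.46 to 1.52, adjusted p = 0.973, limma). The SD of these differences was 1.82, and it was 1.60 for Map2k1 minus Map2k4, given below. For both pairs the SE and interval are narrower than this spread alone would give, because limma shares the spread across genes. As background, 0.593% of all tested genes were called higher than Map2k1 and 1.77% higher than Mapk3. Such shares also depend on the spread of the second gene between libraries. By mean level Map2k1 was higher than 91.9% and Mapk3 higher than 91.6% of tested genes. Map2k1 lay below Mapk3 in replicate 1 and above it in the other two, and it exceeded Braf in replicate 2 alone. Braf lay above Mapk3 in each library, a pair that was not tested. Between the MAP kinase kinase genes, Map2k1 minus Map2k4 was -2.40, 0.35 and 0.40, a mean of -0.55 (SE 0.62, 95% interval -1.76 to 0.65, adjusted p = 0.389, limma), which turned to 0.37 without replicate 1; 84.2% of all tested genes were called lower than Map2k4. In the order of mean levels, Map2k4 and Map2k1 are neighbours that did not differ beyond the spread of the libraries, and Map2k1, Mapk9 and Mapk3 followed each other at 2.55, 2.55 and 2.52.

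**Figure D3:**
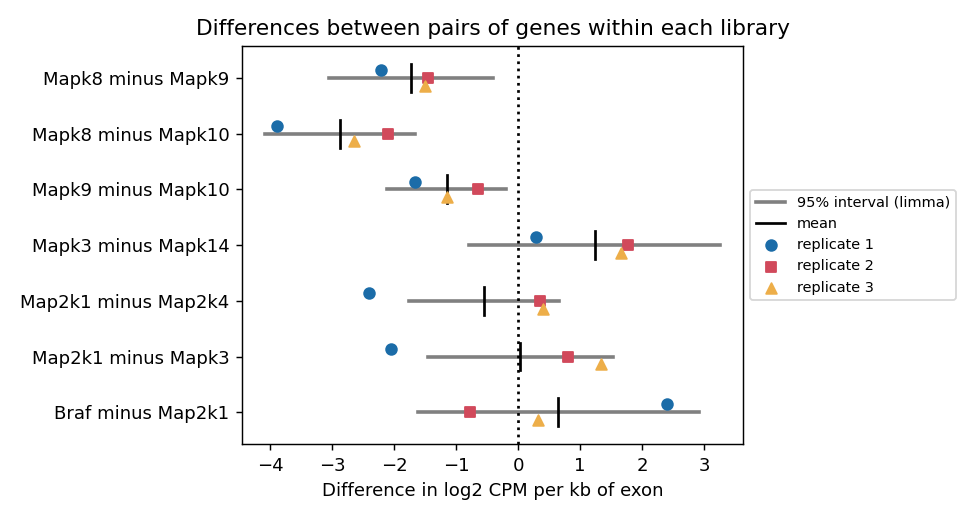
Difference in log2 CPM per kb of exon between pairs of genes within replicates 1 to 3 (points), with the mean (black bar) and the 95% interval from limma (grey line). The 3 JNK pairs lie below 0 in every library, while each pair with Map2k1 has replicate 1 on the other side of 0 from at least 1 other library.

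Members differed in how evenly the libraries held them. Between the highest and the lowest library Mapk10 ranged over 0.20 in log2 CPM, or 1.15-fold, and Braf over 0.38, or 1.30-fold. Only 0.972% of tested genes had a smaller range than Mapk10 and 3.45% a smaller range than Braf, and the median range of tested genes was 1.82, or 3.54-fold. At the other end, Map2k1 ranged over 2.79, or 6.92-fold, and Mapk14 over 2.95, or 7.73-fold, with smaller ranges in 75.1 and 77.9% of tested genes. The other 4 members lay at or under the median range, Map2k4 and Mapk9 at 1.04 each, Mapk3 at 1.59 and Mapk8 at 1.80. Which of Map2k1 and Mapk14 was wider depended on the setting: Map2k1 was the wider with gene totals in place of TMM scaling (3.38 against 2.54), with thinned libraries (2.85 against 2.76) and without replicate 3 (2.83 against 1.49). With gene totals the range of Mapk10 was 0.61, so its evenness rests in part on the scaling.

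The wide members did not move together. In replicate 1 Map2k1 was at 41.5 CPM, its lowest, and Mapk14 at 182 CPM, its highest, and without that library their ranges were 1.01 and 1.43. Map2k1, Mapk8 and Mapk9 were each highest in replicate 2 and lowest in replicate 1, as were the summed levels of the pan-neuronal markers and of 7 CA field markers (110, 300.5 and 276 CPM), and the nuclear noncoding RNA list had the opposite order. These sums follow their most abundant genes. Of the pan-neuronal markers 3 of 7 had the order of Map2k1, among them Snap25 at 5316, 10871 and 5338 CPM, and of the CA field markers 1 of 7, Cpne4 at 43.1, 220.3 and 133 CPM. Mapk14, like Mapk3, was highest in replicate 1, next in replicate 2 and lowest in replicate 3. None of the 9 list sums had that order, but 5 of the 62 single genes did. They were the granule cell markers Prox1 and Plk5, the neuronal marker Rbfox3 (727, 343 and 166 CPM) and the CA field markers Iyd and Grik4. The order of Map2k1 was that of 13 of the 62, among them 3 of the 9 granule cell markers. The other sums were 424, 198 and 360 CPM for 5 GABAergic markers, 878, 739 and 1208 CPM for 7 oligodendrocyte markers and 437, 971 and 363 CPM for 7 endothelial and mural markers. The part of these lists in the spread was not tested.

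**Figure D4:**
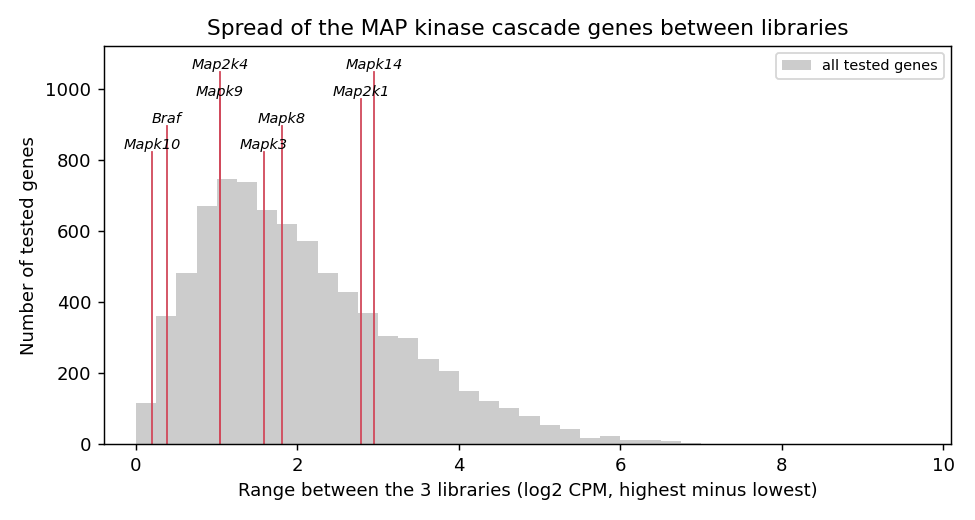
Number of tested genes (grey bars) by range between the 3 libraries in log2 CPM, with the range of each of the 8 cascade genes marked in red. Mapk10 and Braf lie at the low end at 0.20 and 0.38, and Map2k1 and Mapk14 lie above the median range of 1.82.

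Beside the 8 members, 90 other genes of the pathway, also chosen with earlier results of these data known, were read. All had a row and 76 of them were tested. Of these 76, 12 lay above the median gene in the limma TREAT test (15.8%, against 9.76% of all tested genes). Below it lay 0, against 3.74% of all tested genes. At an unadjusted p under 0.05, 2 were below, and the share of all tested genes at that threshold was not computed. The counts were the same with DESeq2 size factors, which barely move such levels by construction. The median level of the 76 was 0.61. The lists that hold many of the genes that failed the filter, namely other MAP kinases, DUSP phosphatases and substrate kinases, had medians of -1.85, -2.46 and -2.13 over all members with a row. Over their tested genes alone the medians were -0.09, 1.01 and -1.35, so the low DUSP median rests on genes that failed the filter. Without correction for length 21 of 76 lay above, where 14.1% of all tested genes did. Of the 12 genes above, 7 kept their call under each of 11 alternative settings and 5 lost it under at least 1. Among these settings, DESeq2 size factors and abundant genes out of the library size barely move levels by construction.

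Upstream, the Ras, Rap and exchange factor list had 3 of 11 tested genes above the median gene, against 9.76% of all tested genes. Its median was 1.84 over its 12 members. Rasgrp1, which loads Ras with GTP in answer to calcium and diacylglycerol, reached 744, 326 and 336 CPM per kb in replicates 1 to 3 (level 6.16, adjusted p = 3.5e-06, limma). Rasgrf1, a calcium-dependent exchange factor of neurons, had 81.5, 97.1 and 141 CPM per kb (level 4.10, adjusted p = 7.7e-05). Hras was lowest, with 7, 419 and 182 counts (level -1.49, adjusted p = 0.637). Of 8 Ras inhibitors 3 lay above, against the same 9.76% of all tested genes. Among the 3 was Spred2, which restrains RAF activation, at 48.8 ± 20.0 CPM per kb (level 2.91, adjusted p = 0.0058, limma). The call of Spred2 was lost without replicate 2 (2.69, adjusted p = 0.0668). Rasa2 was the lowest of the 8 inhibitors at 1.55 ± 0.223 CPM per kb (SD, n = 3 each).

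Among the other kinases of the cascade 2 of 29 tested genes were called above the median gene (6.9%, against 9.76% of all tested genes). Of 15 other RAF and MAP3K genes only Taok1, which can activate stress-kinase branches, was called, at 70.6, 67.9 and 62.0 CPM per kb (level 3.46, adjusted p = 5.0e-04, limma). Map3k7 (TAK1) had a level of 1.59 (adjusted p = 0.442) and Map3k1 was lowest at -2.31. None of the 6 MAP4K genes passed, with Map4k3 at 2.0 (adjusted p = 0.147), Mink1 at 1.47 and Map4k2 at -1.35. None of the 3 tested other MAP kinase kinase genes passed either: Map2k7, the other JNK kinase, was at 0.95 and Map2k5 at 0.53, while Map2k3, a p38 kinase, had 0, 108 and 31 counts. Of the other MAP kinases Nlk was called, at 143, 56.8 and 41.8 CPM per kb (level 3.53, adjusted p = 9.2e-04). Mapk4, an atypical MAP kinase, stood at 1.58 (adjusted p = 0.409), and the p38-delta gene Mapk13 had 0, 0 and 1 counts.

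None of the 7 scaffold genes was called, against 9.76% of all tested genes above the median gene, and their levels ran from -1.35 to 1.74. Spag9 (JIP4) had a level of 1.74 (adjusted p = 0.273, limma), Mapk8ip1 (JIP1), a JNK scaffold, 1.11 and Lamtor3, a scaffold of MEK and ERK, -1.35. Of the DUSP genes, whose products remove phosphate from MAP kinases, 5 of 11 failed the filter and 1 of the 6 tested was called. This was Dusp7, at 118, 43.8 and 19.7 CPM per kb (level 2.95, adjusted p = 0.0107). Dusp1 had 52.6, 10.5 and 9.72 CPM per kb (level 1.54, adjusted p = 0.482), and Dusp9 had 0, 4 and 0 counts. Dusp2, named after its values were seen, had 0 counts in each library. Like Mapk14, Dusp7 and Dusp1 were highest in replicate 1 and lowest in replicate 3.

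Downstream, 0 of 7 tested substrate kinase genes were called, where 9.76% of all tested genes were above the median gene. With 7 genes, 0 calls does not set this list apart from that share. Rps6ka3 (RSK2), which ERK activates, stood at 0.71 (adjusted p = 0.96, limma) and Rps6ka2 at -0.32, and Mapkapk3, a kinase activated by p38, had 0 counts in each library, which allows up to 0.707, 0.131 and 0.257 CPM in replicates 1 to 3. Of 8 transcription factor genes 3 lay above the median gene, against the same 9.76% of all tested genes. Elk4, an ETS factor of the family that ERK phosphorylates, had 158, 33.0 and 81.0 CPM per kb (level 3.63, adjusted p = 9.3e-04), and Atf2, a target of JNK and p38, had 36.3, 66.7 and 31.2 (level 2.81, adjusted p = 0.0071), a call lost without replicate 2 (2.43, adjusted p = 0.146). Elk3 was lowest at -0.90.

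**Figure D5:**
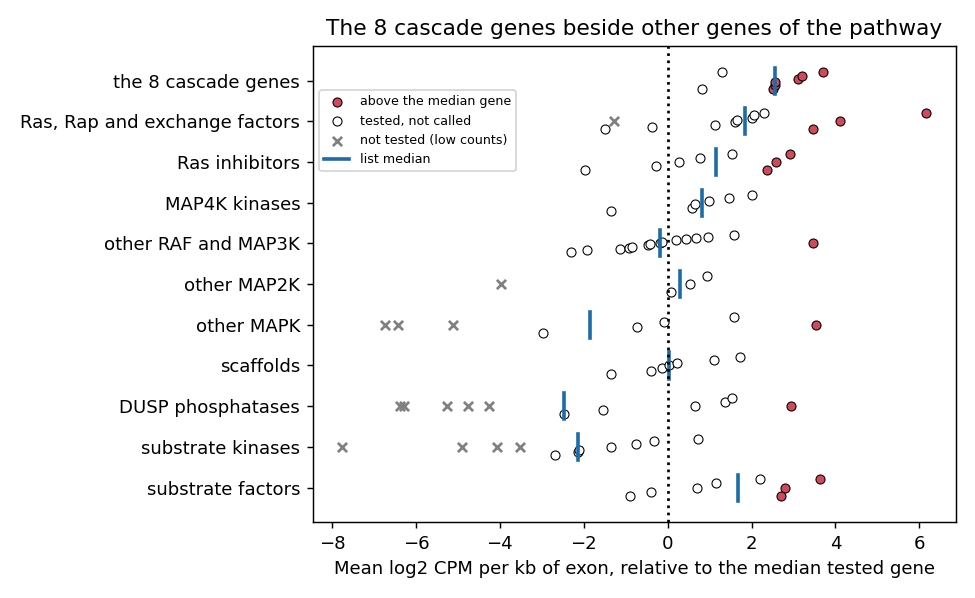
Mean log2 CPM per kb of exon relative to the median tested gene for the 8 cascade genes and 10 lists of other pathway genes, with genes above the median gene in red, tested genes not called as open circles, genes that failed the filter as crosses and list medians in blue. The median of the 8 cascade genes is 2.55. The DUSP, substrate kinase and other MAPK lists have medians below 0 with the genes that failed the filter included. Over tested genes alone the DUSP median is 1.01.

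The gene nearest to each member in level per kb over the 3 libraries, by root mean square difference in log2, was sought among the other 97 members and pathway genes. Taok1 was nearest to both Mapk10 (0.29) and Braf (0.30), all 3 being high and even. Spred2 was nearest to Map2k4 (0.23) and to Mapk3 (0.42), and shared with both a lower value in replicate 3 than in the other two. Rap1a, a small GTPase that can activate BRAF, was nearest to Map2k1 (0.41), with 12.6, 52.3 and 39.1 CPM per kb. Mef2c was nearest to Mapk8 (0.42), Atf2 to Mapk9 (0.48) and Dusp1 to Mapk14 (0.59). With 3 libraries such likeness is a description of these values only.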

How the data were processed

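The authors deposited 1 file of raw read counts for each library, with genes named by symbol and nothing normalised or pooled. Per the submitters' processing notes, the tools were STAR 2.0.0e with HTSeq, on the mm10 build. The strand setting, annotation and any filter are not given in the sources used here. Summary rows of the counter were left out.

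Counts were scaled with TMM in edgeR 4.0.16 (R 4.3.3) to CPM, and log2 CPM used a prior count of 2. Levels were divided by the union of exon lengths from GENCODE vM21 (GRCm38); the authors may have counted with another annotation. The filter filterByExpr kept 8510 of 32531 genes, and the 7924 with an exon length (93.1%) were tested. Each level, minus the library's median tested gene, was tested with limma 3.58.1 (trend, TREAT, log2 threshold of 1). Differences between pairs came from limma fits of every tested gene minus the second gene of the pair. All p-values were Benjamini-Hochberg adjusted over all tested genes, with a threshold of 0.05. Both tests were tried on simulated counts in which a gene had the same level in every library and all genes the same spread. That trial does not cover libraries that differ in composition, as these do.

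Members, lists and pairs were chosen with earlier results of these data known. Named from the other pathway genes were the 2 highest and the 1 lowest of each list by mean log2 level per kb, which near 0 counts depends on the prior count and the length, and the gene nearest to each member. 1 gene that this rule names is not reported here. Alternatives included DESeq2 1.42.0 size factors. Intervals of counts are exact Poisson and shares exact Clopper-Pearson (95%), covering counting error only. Figures were drawn with matplotlib 3.10.9.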

Additional observations from a re-analysis of the deposited data

How the results depend on the processing

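Calls and directions of levels and pair differences were the same with DESeq2 size factors, with abundant genes out of the library size and with a prior count of 0.5; for the first pair of settings, values relative to the library's own median gene or to another gene barely move by construction. The level of Map2k1 lost its call without correction for length (1.91), with the longest coding length (2.33) and with libraries thinned to the smallest (2.30). The level of Mapk3 lost it in the same settings (1.29, 1.76 and 2.26). Mapk8 (2.76) and Mapk14 (3.22) passed when no filter was used, since the median gene is then lower. Mapk8 minus Mapk9 lost its call without correction for length (-0.97), with the longest transcript (-1.27) and with the longest coding length (-0.98). Pathway genes above the median gene, 12 of 76 where 9.76% of all tested genes were above, numbered 34 of 88 with no filter (17.8% of all tested genes) and 21 of 76 without correction for length (14.1%). Those below, against 0 where 3.74% of all tested genes were below, numbered 3 of 88 with no filter (16.9% of all tested genes). They numbered 2 of 76 without correction for length (5.21%), 1 of 76 with the longest transcript (3.52%) and 2 of 76 with the longest coding length (5.17%).

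Leaving out each replicate in turn gave levels of 1.88 to 3.75 for Map2k1, 2.23 to 3.19 for Mapk3, 2.27 to 3.27 for Mapk9, 0.42 to 1.79 for Mapk8 and 0.97 to 2.16 for Mapk14. Pathway genes above the median gene then numbered 18 of 81, 8 of 74 and 10 of 78 without replicates 1, 2 and 3. Over all tested genes 14.6, 7.21 and 7.27% were above. Members above the median gene then numbered 3 to 6 of 8, against these same shares. Pathway genes below it numbered 1, 0 and 2, where 6.07, 3.16 and 2.55% of all tested genes were below. Differences ran from -1.86 to -1.48 for Mapk8 minus Mapk9 and from -1.41 to -0.90 for Mapk9 minus Mapk10. The sign turned within -1.03 to 0.37 for Map2k1 minus Map2k4, -0.62 to 1.07 for Map2k1 minus Mapk3 and -0.22 to 1.36 for Braf minus Map2k1. Of the pathway genes called above, 5 lost the call in some setting. Atf2 and Spred2 lost it without replicate 2. Mef2d lost it with the longest transcript (2.39, adjusted p = 0.0583, limma), with thinned libraries and without replicate 2. Nf1 lost it with the longest coding length (1.52, adjusted p = 0.405, limma), with thinned libraries and without replicates 2 or 3. The cause of each change was not tested.

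Ranges between libraries were recomputed in settings chosen after seeing the data. With gene totals in place of scaling factors they were 1.63 for Mapk9, 0.61 for Mapk10, 3.38 for Map2k1, 2.39 for Mapk8 and 2.54 for Mapk14. Leaving out each replicate in turn, they ran from 0.097 to 0.34 for Braf, 1.01 to 2.83 for Map2k1, 0.085 to 1.06 for Map2k4 and 0.014 to 1.54 for Mapk3. For Mapk8 they ran from 0.38 to 1.85, for Mapk9 from 0.34 to 1.08, for Mapk10 from 0.062 to 0.25 and for Mapk14 from 1.43 to 2.89. The smallest member count was 176, so depth limits the pathway genes near 0 counts more than the members. No paired analysis was possible because there is 1 group only.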
